A study of Homo sapiens with 6 samples.

Results

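Mitochondrial ribosomal proteins are encoded in the nucleus, made in the cytosol and imported into mitochondria, where they assemble with mitochondrially encoded rRNAs into the mitoribosome, the particle that translates the respiratory chain proteins encoded by mtDNA. The small subunit binds the mRNA and decodes it, and the large subunit holds the peptidyl transferase centre and the exit tunnel through which the new protein reaches the inner membrane. Part of the set descends from the bacterial ribosome and part was added in the mitochondrial lineage. The genes described here are the rows of the deposited expression table whose symbol is MRPL or MRPS followed by a number and at most a letter from A to C. There were 78 such genes of 38637 listed, 49 named for the large subunit (MRPL) and 29 for the small subunit (MRPS). MRPS18A and MRPS30 are named for the small subunit but their proteins sit in the large one, and MRPS36 is now placed in the alpha-ketoglutarate dehydrogenase complex. They are counted here under their symbols.

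Poly(A) RNA was sequenced from OVCAR8, an established human ovarian cancer cell line labelled wild type, after 72 h with the solvent DMSO (3 samples) or with 2 nM pladienolide B (3 samples). Pladienolide B binds the SF3b complex of the U2 snRNP, of which SF3B1 is the largest subunit, and inhibits splicing. The study used the comparison to find what the drug changes in ovarian cancer cells, and it is the only comparison of these samples. No label says that the samples of a group came from separate cultures, so the p-values measure the spread between these samples, which may be technical. The samples are bulk RNA, in which fewer cells and less RNA per cell cannot be told apart.

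Each gene has 1 value per sample, here called adjusted reads, which are reads scaled by the authors to a common library size. The libraries had between 22621338 and 26130882 reads on genes. All 9 epithelial ovarian cancer markers examined were above 10 adjusted reads in at least 1 sample of each group and their sum ran from 80770 to 86661 in DMSO and from 81207 to 96567 with the drug, with KRT19, WT1 and MUC16 lowest. Of 10 markers of blood, vessel, stromal and liver cells, 4 (PTPRC, CD3E, DCN and ALB) stayed below 10 adjusted reads in every sample. The sum of the 10 ran from 7859 to 8271 in DMSO and from 7197 to 7988 with the drug, most of it COL1A1, and CD68 rose (log2 fold change 0.41, limma adjusted p = 2.35e-05) while COL1A1 fell (-0.21, adjusted p = 0.00138). The epithelial markers KRT8 and KRT18 rose and KRT7 and MSLN fell (0.27, 0.29, -0.64 and -0.44, limma adjusted p at most 0.000957). For both lists their part in the results below was not tested.

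DMSO replicate 2 stood apart from the other DMSO libraries. A chi-square test of the reads, divided by its degrees of freedom, gave 7.42 and 7.31 for the pairs that include it, 2.01 for DMSO replicates 1 and 3, and 3.17 to 4.84 for the pladienolide B pairs. Its difference from the mean of DMSO replicates 1 and 3 had a median of 0.013 on the log2 scale over all 16178 genes tested, 0.166 over the MRPL genes and 0.153 over the MRPS genes. It was above that mean for 45 of 49 MRPL genes and 26 of 29 MRPS genes, against 53.1% of all genes tested. The 82 cytosolic ribosomal protein genes shared the shift, with a median of 0.16 and all 82 above 0. Across all genes the shift fell with transcript length, from a median of 0.081 in the shortest 20% of transcripts (up to 1682 bases) to -0.036 in the longest 20%. Of the MRPL genes 36 and of the MRPS genes 18 have a transcript among the shortest 20%. The counts of calls by subunit, list, promoter motif and neighbour, and the log2 fold changes of the members named for their change, are therefore also given without this library. With the trend on transcript length removed from each library, a fit added after the values were seen, 17 MRPL genes were called higher and 4 lower, and 13 MRPS genes higher and 5 lower.

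**Figure D1:**
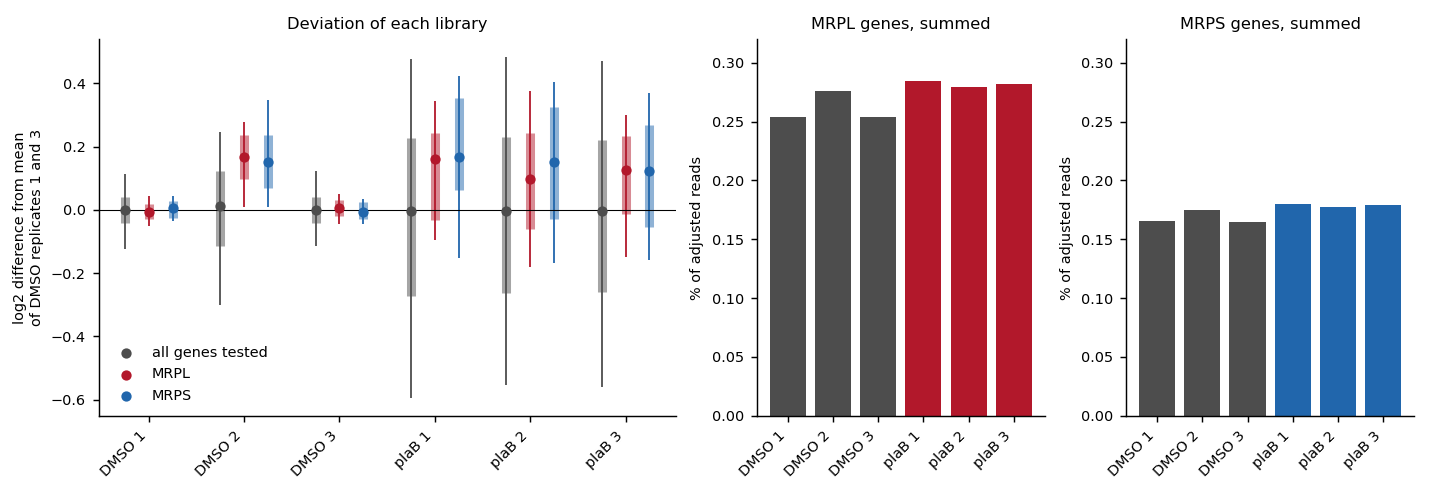
The left panel shows, for each of the 6 libraries (x axis), the log2 difference from the mean of DMSO replicates 1 and 3 (y axis), with the median as a point, the 25th to 75th percentile as a thick bar and the 10th to 90th percentile as a line, for all genes tested, the MRPL genes and the MRPS genes. The other panels show the summed MRPL and MRPS genes as a percentage of all adjusted reads in each library, and DMSO replicate 2 lies between the other DMSO libraries and the pladienolide B libraries in both.

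The members were expressed in every sample, and all 78 passed the filter on low values. Their lowest value in any sample was 327 adjusted reads for the MRPL genes and 300 for the MRPS genes, and the highest DMSO mean was 3834 (MRPL37). Levels can be compared between genes only per length, so the DMSO mean was divided by the length of the canonical transcript in kb. On that scale MRPL37 (2586 ± 132 adjusted reads per kb, SD, n = 3) and MRPL51 (2485 ± 359) were the most abundant MRPL genes, and MRPL42 (87.6 ± 6.04) and MRPL57 (161 ± 19.1) the least. The canonical transcript of MRPL42 is 15557 bases long, the divisor of its low value, and the isoform that was counted is not known. Among the MRPS genes, MRPS24 (2617 ± 104) and MRPS34 (1981 ± 142) led and MRPS33 (128 ± 19.0) and MRPS17 (191 ± 37.2) were lowest. MRPS24, MRPL37 and MRPL51 differed from each other by less than their spread. MRPS24 lies on the same strand as, and overlaps, the read-through gene URGCP-MRPS24, so its level is uncertain.

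Features of these genes that the symbol rule did not use are their promoters and their neighbours. Of the 69 members with a RefSeq promoter entry (GRCh38.p14, from 250 bases before to 50 after the start), 40.5% of 42 MRPL promoters and 44.4% of 27 MRPS promoters held the letters CCGGAAG, the core bound by ETS factors such as GABP. The share was 14.4% of 15218 promoters of protein-coding genes listed. That background was not limited to genes that passed the filter on low values, as all members did. AAGATGGCG, a YY1 core, was in 19.0%, 18.5% and 2.81%, and GCGCATGC, a core of nuclear respiratory factor NRF1, in 9.52%, 7.41% and 4.27%. Both strands were searched, these 3 motifs do not contain one another, and a match is a description of letters and not evidence of binding. The promoters below belong to members with large changes whose last 120 bases before the start hold a motif, written 5′ to 3′ on the gene's strand with the motif in capitals (CTTCCGG and GCATGCGC are CCGGAAG and GCGCATGC read on the other strand). They are the fallers MRPL32 (chr7:42932256-42932375, plus strand), MRPL33 (chr2:27771599-27771718, plus) and MRPS34 (chr16:1773135-1773254, minus), and the risers MRPS31 (chr13:40771191-40771310, minus), MRPS23 (chr17:57850045-57850164, minus) and MRPS18B (chr6:30617720-30617839, plus). The starts are those of RefSeq. The deposited positions start MRPS18B at 30617320, so its stretch lies inside the gene as listed. They start MRPS31 at 40771207, within its stretch.
MRPL32: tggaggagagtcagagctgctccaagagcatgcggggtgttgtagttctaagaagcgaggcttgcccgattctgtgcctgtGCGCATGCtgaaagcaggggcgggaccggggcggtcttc
MRPL33: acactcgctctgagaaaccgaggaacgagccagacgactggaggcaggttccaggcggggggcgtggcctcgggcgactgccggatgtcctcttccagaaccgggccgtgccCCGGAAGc
MRPS34: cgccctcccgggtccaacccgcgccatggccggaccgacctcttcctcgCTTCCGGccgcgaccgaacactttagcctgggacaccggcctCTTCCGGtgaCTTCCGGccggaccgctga
MRPS31: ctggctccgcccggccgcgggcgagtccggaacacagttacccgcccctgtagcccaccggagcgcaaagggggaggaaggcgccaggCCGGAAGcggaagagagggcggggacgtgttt
MRPS23: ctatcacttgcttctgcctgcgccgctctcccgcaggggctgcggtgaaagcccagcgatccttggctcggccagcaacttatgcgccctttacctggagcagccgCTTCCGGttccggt
MRPS18B: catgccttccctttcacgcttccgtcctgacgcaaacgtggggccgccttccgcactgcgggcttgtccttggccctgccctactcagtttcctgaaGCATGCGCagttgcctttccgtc
The same motifs stood before genes that fell and genes that rose. Of the 29 members with the CCGGAAG core, 9 were called higher and 7 lower (median log2 fold change 0.068), and of the 40 without it 12 were higher and 5 lower (median 0.083). The 13 members with the YY1 core had 3 higher and 2 lower (median 0.072), and the 6 with the NRF1 core had 1 higher and 1 lower (median 0.007). Called shares were 55.2% with the CCGGAAG core, 42.5% without it, 38.5% with the YY1 core and 33.3% with the NRF1 core, beside 47.6% of all genes tested. Without DMSO replicate 2 the counts higher and lower were 13 and 3 with the CCGGAAG core, 18 and 4 without it, 4 and 1 with the YY1 core and 2 and 1 with the NRF1 core. No test of these differences was made.

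Pladienolide B changed the adjusted reads of these genes in both directions and by little. Reads per gene do not tell spliced from unspliced or mis-spliced RNA, and splicing of the members was not examined. Changes were tested with limma across all 16178 genes, and a gene was called when its Benjamini-Hochberg adjusted p was under 0.05. Of the 49 MRPL genes 14 rose and 8 fell, and of the 29 MRPS genes 10 rose and 6 fell. The calls covered 44.9% of MRPL and 55.2% of MRPS genes, beside 47.6% of all genes tested (22.4% higher and 25.2% lower), so the number of calls was near the background for both. The groups did not overlap for 22 MRPL and 17 MRPS genes, or 44.9% and 58.6%, beside 55.3% of all genes. The median log2 fold change was 0.068 for MRPL and 0.084 for MRPS genes, beside -0.004 for all genes. No member changed 2-fold, a size that 3.93% of all genes tested reached with a call.

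The split between rises and falls rested in part on DMSO replicate 2. Without it 21 MRPL genes were called higher and 3 lower, and 15 MRPS genes higher and 5 lower, beside 23.1% higher and 24.5% lower of all genes tested in that fit. All 14 MRPL and 10 MRPS rises were called again, and 7 more MRPL and 5 more MRPS genes joined them. Of the 8 MRPL falls only those of MRPL32, MRPL33 and MRPL21 were called again, and of the 6 MRPS falls that of MRPS21 was lost. The medians were then 0.124 and 0.114. On the recovered reads, edgeR called 15 MRPL genes higher and 8 lower with TMM factors, 15 and 7 with RLE factors and 17 and 3 with upper-quartile factors, so the scaling moved this split within 1 test. DESeq2 called 14 and 4.

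Summed over the subunit, the reads of these genes took a slightly larger part of the library after the drug. MRPL genes held 0.254%, 0.276% and 0.254% of adjusted reads in DMSO replicates 1 to 3 and 0.285%, 0.279% and 0.283% in pladienolide B replicates 1 to 3. MRPS genes held 0.165%, 0.175% and 0.165% in DMSO and 0.180%, 0.177% and 0.179% in pladienolide B. By this share the pladienolide B samples lay above all DMSO samples in both subunits, with DMSO replicate 2 the nearest to them. The summed adjusted reads, not divided by the library total, did not separate the groups. There DMSO replicate 2 was the highest sample in both subunits. Its MRPL sum was 69675, against 67451 to 69334 in pladienolide B. Its MRPS sum was 44000, against 42837 to 43868. No p is given for a sum over chosen genes.

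**Figure D2:**
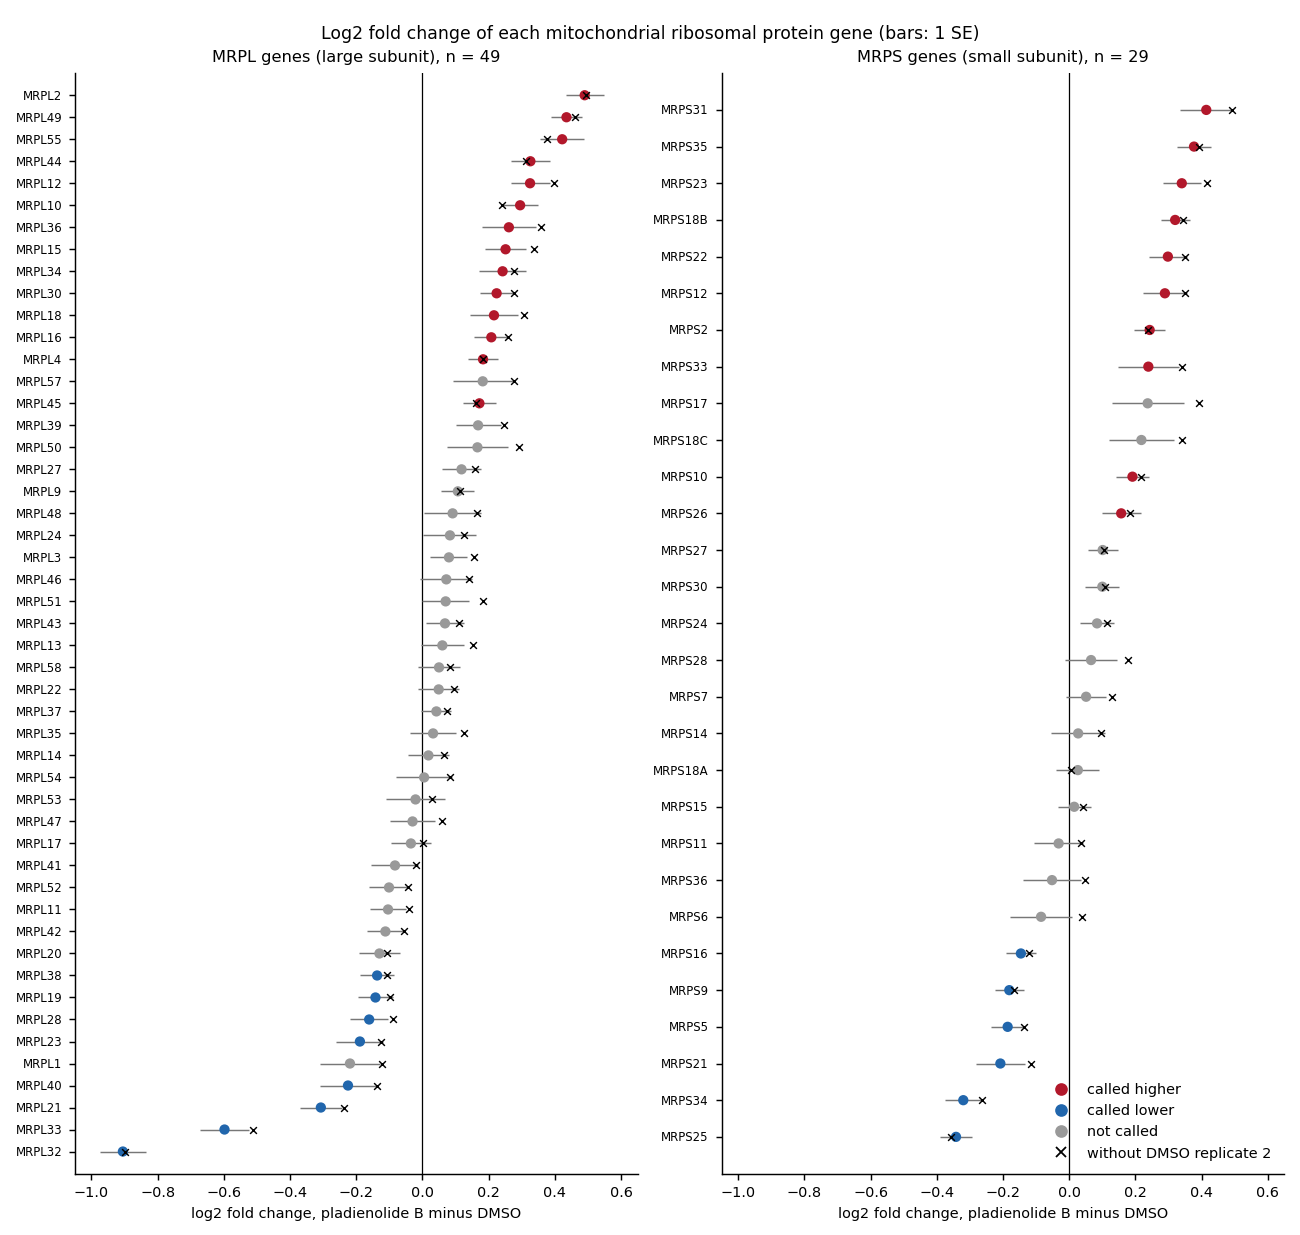
Each row (y axis) is a member, MRPL at left and MRPS at right, ordered by its log2 fold change in pladienolide B against DMSO (x axis). Points are the estimate from all 6 samples with 1 SE, coloured by call, and crosses the estimate without DMSO replicate 2. MRPL32 and MRPL33 lie apart at -0.91 and -0.60, the other members lie between -0.34 and 0.49, and most crosses lie to the right of their points.

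The largest change among the members was the fall of MRPL32, a zinc-binding large-subunit protein with a bacterial counterpart, which is matured by the m-AAA protease. MRPL32 had 772, 788 and 783 adjusted reads in DMSO replicates 1 to 3 and 442, 413 and 396 in pladienolide B, so the treated samples were at 53.4% of the DMSO mean and the groups lay far apart. The log2 fold change was -0.91 (SE 0.069, limma adjusted p = 1.81e-08) and stayed between -0.95 and -0.87 with any 1 sample left out. DMSO replicate 2 did not stand out for this gene. The gene lies on chr7 from 42932376 to 42937857, plus strand, and its canonical transcript has 3 exons.

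MRPL33, another large-subunit protein of bacterial descent, fell next. It had 749.8, 903 and 758 adjusted reads in DMSO and 535, 517 and 534 in pladienolide B, or 65.8% of the DMSO mean. All DMSO samples were above all treated samples, with DMSO replicate 2 the highest. The log2 fold change was -0.60 (SE 0.075, limma adjusted p = 5.86e-06), and -0.51 without that replicate (adjusted p = 3.38e-06).

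The other named MRPL falls were smaller. MRPL21, of bacterial descent, had 1165, 1368 and 1197 adjusted reads in DMSO and 1040, 965 and 1002 in pladienolide B. Its groups did not overlap, and its log2 fold change of -0.31 (limma adjusted p = 0.000791) was -0.24 without DMSO replicate 2 (adjusted p = 0.00156). MRPL40, a protein of the central protuberance that faces the small subunit, had 557, 669 and 555 adjusted reads in DMSO against 471, 547 and 502, and MRPL28, of bacterial descent, 2744, 3180 and 2733 against 2483, 2517 and 2728. In both the highest value was DMSO replicate 2, and the other DMSO samples lay close to the highest treated one. Their log2 fold changes of -0.23 and -0.16 (limma adjusted p = 0.0371 and 0.0307) became -0.14 and -0.09 without that replicate and were no longer called (adjusted p = 0.162 and 0.111). MRPL19, MRPL23 and MRPL38, named after their values were seen, were the other falls lost with that library.

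Among the MRPL rises, MRPL2 was first. It encodes the counterpart of bacterial L2, a protein near the peptidyl transferase centre. MRPL2 had 919, 967 and 1003 adjusted reads in DMSO and 1302, 1334 and 1424 in pladienolide B, which was 140.5% of the DMSO mean with no overlap. The log2 fold change was 0.49 (SE 0.057, limma adjusted p = 2.54e-06), and it was the same to 2 decimals without DMSO replicate 2.

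MRPL49 and MRPL55 rose by similar amounts. MRPL49, a mitochondria-specific protein, had 2502, 2625 and 2463 adjusted reads in DMSO and 3522, 3240 and 3499 in treated samples, for a log2 fold change of 0.43 (SE 0.047, limma adjusted p = 1.11e-06). MRPL55, the counterpart of bacterial L31, had 629, 596 and 683 in DMSO and 837, 856 and 859.8 in treated samples, for a log2 fold change of 0.42 (SE 0.066, limma adjusted p = 5.38e-05). The groups were well separated in both, and DMSO replicate 2 was the lowest sample for MRPL55. Without that library the log2 fold changes were 0.46 and 0.38. MRPL2 overlaps KLC4 and MRPL49 overlaps SYVN1 on the opposite strand, and whether reads were counted by strand is not given in the sources used here, so reads of these pairs cannot be told apart. In all, 26 members are overlapped by a gene on the opposite strand, among the named ones also MRPL37, MRPS9, MRPS18A, MRPS18C and MRPS33.

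MRPL44, a mitochondria-specific protein with an RNase III-like fold near the exit tunnel, had 807, 791 and 814 adjusted reads in DMSO and 1003, 1051 and 971 in pladienolide B, and MRPL12, the stalk protein that recruits translation factors, had 1799, 2119 and 1840 against 2480, 2290 and 2428. Neither overlapped between groups. Both had a log2 fold change of 0.33 (limma adjusted p = 0.000191 and 0.000233), which became 0.31 and 0.40 without DMSO replicate 2. The MRPL genes not called, 27 of 49, had estimates between -0.22 and 0.18.

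**Figure D3:**
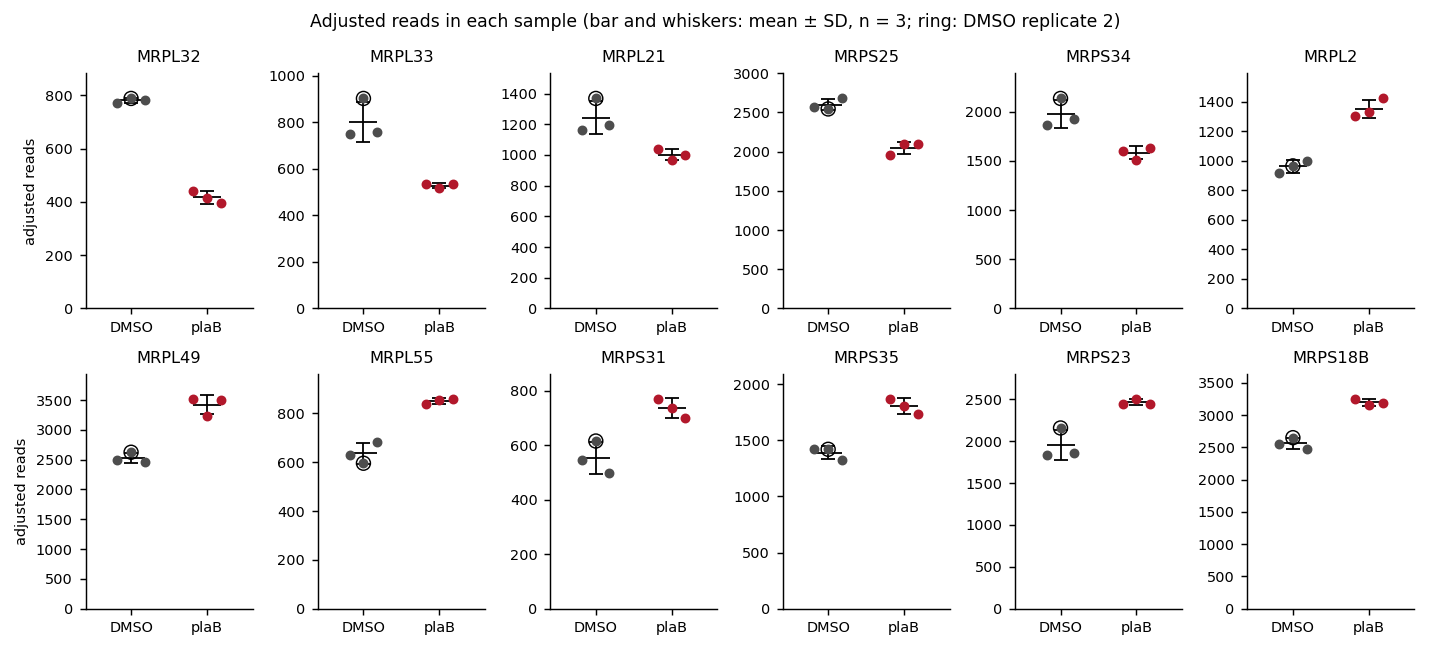
Adjusted reads (y axes, each from 0) in the 3 DMSO and 3 pladienolide B samples for 5 members that fell and 7 that rose, with the mean and SD of each group and a ring around DMSO replicate 2. The groups do not overlap in any of the 12 panels, and MRPL32 shows the largest gap relative to its level, with DMSO samples at 772 to 788 and treated samples at 396 to 442.

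Grouped by origin and place in the large subunit, most groups held calls in both directions. Of 30 proteins with a bacterial counterpart 11 rose and 6 fell (56.7% called, median log2 fold change 0.07), and of 19 mitochondria-specific proteins 3 rose and 2 fell (26.3%, median 0.068), beside 47.6% of all genes tested. Without DMSO replicate 2 these were 14 and 3, and 7 and 0. Of the 5 stalk proteins 2 rose (MRPL10 and MRPL12), of the 6 central protuberance proteins 1 rose (MRPL18) and 2 fell (MRPL38 and MRPL40), and of 7 proteins around the exit tunnel 2 rose (MRPL44 and MRPL45) and 1 fell (MRPL23). None of these 3 falls was called without DMSO replicate 2. The medians were 0.005, -0.015 and 0.049. Genes in these counts that the naming rule did not choose were named after their values were seen.

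In the small subunit the deepest falls were those of MRPS25 and MRPS34, both mitochondria-specific, the latter known to be needed for a stable small subunit. MRPS25 had 2576, 2545 and 2679 adjusted reads in DMSO and 1962, 2098 and 2094 in pladienolide B, or 78.9% of the DMSO mean, a log2 fold change of -0.34 (SE 0.047, limma adjusted p = 1.5e-05). MRPS34 had 1865, 2136 and 1930 in DMSO and 1603, 1508 and 1634 in treated samples, for a log2 fold change of -0.32 (SE 0.056, limma adjusted p = 0.000179), or -0.26 without DMSO replicate 2 (adjusted p = 0.000177). MRPS25 was at -0.36 without that library. Both groups were apart in each gene. MRPS25 overlaps NR2C2 and MRPS34 overlaps EME2 on the opposite strand, with the limit given above.

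MRPS21, MRPS5 and MRPS9, all of bacterial descent, fell by less. MRPS5, which lines the mRNA entry, had 2683, 2906 and 2570 adjusted reads in DMSO and 2406, 2346 and 2412 in pladienolide B, and MRPS9, of the head, 2343, 2408 and 2347 against 2113, 2044 and 2105. Neither overlapped, and their log2 fold changes were -0.19 and -0.18 (limma adjusted p = 0.00533 and 0.00297), or -0.14 and -0.17 without DMSO replicate 2 (adjusted p = 0.011 and 0.0029). MRPS21 had 855, 1062 and 896 adjusted reads against 844, 802 and 779.7, with only DMSO replicate 2 far above the treated samples. Its log2 fold change of -0.21 (limma adjusted p = 0.0291) was -0.12 without that library and not called (adjusted p = 0.136).

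The 5 largest MRPS rises with all samples were those of MRPS31, MRPS35, MRPS23, MRPS18B and MRPS22. MRPS18B is listed here as mitochondria-specific, like the other 4, but it is also a paralog of bacterial S18. Without DMSO replicate 2, MRPS17, of bacterial descent, was among the 5 largest at 0.39, and MRPS12, likewise of bacterial descent, stood level with MRPS22 at 0.35. MRPS31 and MRPS35 belong to the head of the subunit. MRPS31 had 546, 616 and 499 adjusted reads in DMSO and 771, 739 and 699 in pladienolide B, or 132.9% of the DMSO mean, a log2 fold change of 0.41 (SE 0.078, limma adjusted p = 0.000336). Its treated samples were all above the DMSO samples, and without DMSO replicate 2 the log2 fold change was 0.49. MRPS35 had 1423, 1419 and 1321 in DMSO and 1869, 1806 and 1730 in treated samples, for a log2 fold change of 0.38 (SE 0.052, limma adjusted p = 1.67e-05) and 0.39 without DMSO replicate 2, with no overlap. The pseudogene MRPS31P5, close in name and sequence to MRPS31, was listed at 135 ± 17.7 adjusted reads in DMSO and 152.5 in pladienolide B, and how reads shared by the pair were assigned is not known.

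MRPS23 had 1841, 2158 and 1856 adjusted reads in DMSO and 2446, 2507 and 2440 in treated samples, for a log2 fold change of 0.34 (limma adjusted p = 0.00011). MRPS18B had 2557, 2650 and 2482 against 3253, 3153 and 3189, a log2 fold change of 0.32 (limma adjusted p = 1.49e-05). MRPS22 had 1302, 1435 and 1280 against 1724, 1545 and 1671, a log2 fold change of 0.30 (limma adjusted p = 0.000471). In all 3 genes the treated samples were above every DMSO sample, and without DMSO replicate 2 the log2 fold changes were 0.41, 0.34 and 0.35. MRPS18B overlaps PPP1R10 and MRPS22 overlaps COPB2 on the opposite strand.

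Of the 3 paralogs of bacterial S18, 1 was called with all samples: MRPS18B rose as given above. MRPS18A had 839, 851 and 937 adjusted reads in DMSO and 951, 870.2 and 854 in pladienolide B (log2 fold change 0.03, limma adjusted p = 0.772), and MRPS18C had 560.2, 656 and 462 against 661, 662 and 612 (0.22, adjusted p = 0.0747). The groups overlapped for both, and MRPS18C was called without DMSO replicate 2, at 0.34 (adjusted p = 0.00176). The differences between the paralogs were not tested. MRPS30 (0.10, SE 0.051) and MRPS36 (-0.05, SE 0.087) were not called with or without that library.

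By origin, of 16 small-subunit proteins with a bacterial counterpart 3 rose and 4 fell (43.8% called, median log2 fold change 0.039), and of 10 mitochondria-specific ones 7 rose and 2 fell (median 0.268), beside 47.6% and -0.004 for all genes. Only MRPS27 of the latter 10 was not called, at 0.10 (limma adjusted p = 0.0738), and it was called without DMSO replicate 2, when 8 rose and 2 fell, while the 16 had 7 rises and 3 falls. Of 8 head proteins 4 rose and 1 fell, with a median of 0.137, or 5 and 1 without DMSO replicate 2. These 3 lists hold only genes with MRPS symbols, so small-subunit proteins with other symbols are left out of the counts. Of the 5 subunit genes with other symbols, given below, GADD45GIP1 belongs to the large subunit. DAP3, PTCD3, CHCHD1 and AURKAIP1 are mitochondria-specific genes of the small subunit, so the list of 10 is not the whole class. With all samples PTCD3 and CHCHD1 fell (-0.24 and -0.25), and DAP3 and AURKAIP1 were not called (-0.01 and -0.06). These are counts over lists chosen with earlier results known, and no test of a difference between the lists was made.

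Among the genes that surround the members in the genome, head-to-head neighbours were common. Of the 78 members 22 (28.2%) have a protein-coding neighbour on the opposite strand whose start lies within 1000 bases, beside 9.49% of 19439 protein-coding genes listed. Genes below the filter on low values are part of that background, and no member is among them. MRPL46 and MRPS11 form such a pair with each other, their starts 320 bases apart, and neither was called (0.07 and -0.03). The pair with MRPL32 is PSMA2, a proteasome subunit, whose start lies 202 bases away. PSMA2 fell by 0.15 on the log2 scale (limma adjusted p = 0.0226) where MRPL32 fell by 0.91, and without DMSO replicate 2 it was at -0.09 (adjusted p = 0.0696).

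Both genes were called in 5 of the 21 pairs, in the same direction in 3 and in opposite directions in 2. Without DMSO replicate 2 both were called in 9, in the same direction in 6 and in opposite directions in 3, and the pairs of MRPL32 and MRPL40 were no longer among them. Other head-to-head pairs were not counted, so these counts have no background of pairs beside them. Of single genes tested with all samples, 47.6% were called. MRPL21 fell while IGHMBP2, a helicase gene whose start is 23 bases away, rose (-0.31 and 0.33), and MRPS12 rose while SARS2, the mitochondrial seryl-tRNA synthetase 181 bases away, fell (0.29 and -0.27). MRPL40 and the histone chaperone gene HIRA both fell (-0.23 and -0.41), the former not called without DMSO replicate 2, and MRPL30 and MITD1 both rose (0.22 and 0.17). MRPL43, not called at 0.07, faces TWNK, the mtDNA helicase, which rose by 0.36 from a start 29 bases away.

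Exon number, transcript length, gene span and GC content were set against the log2 fold change across members as a description. Spearman's rho over the 78 members was 0.05 for exon number, 0.16 for transcript length, -0.09 for gene span and 0.04 for GC content, beside -0.08, 0.02, -0.04 and 0.03 over 14952 genes tested with a canonical transcript. All values come from the same 6 libraries, and genes are not independent replicates. They include DMSO replicate 2, whose shift followed transcript length as given above, and the correlations were not repeated without it. The 30 members that another annotated gene overlaps had 8 rises and 6 falls (median 0.067), and the other 48 had 16 and 8 (median 0.071), beside 22.4% higher and 25.2% lower of all genes tested. When DMSO replicate 2 was left out these were 14 and 4, and 22 and 4.

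The rest of the mitochondrial translation system was read from lists of genes by role, in the same fit. The subunits with other symbols, DAP3, PTCD3, CHCHD1, AURKAIP1 and GADD45GIP1, included 2 falls and no rise. PTCD3 fell by 0.24 and CHCHD1 by 0.25 (limma adjusted p = 0.00154 and 0.00251), and the estimates of all 5 were below 0. Both were called again without DMSO replicate 2, at -0.18 and -0.19. In that fit DAP3 was at 0.006 and AURKAIP1 at -0.002, so the estimates were no longer all below 0. Of 28 assembly factors, the enzymes, GTPases and helicases that process the rRNA and build the subunits, 16 rose and 4 fell (71.4% called, median log2 fold change 0.234), beside 47.6% of all genes tested (22.4% higher and 25.2% lower). The largest in size was the fall of YBEY, an rRNA endonuclease homolog, which had 294, 267 and 315 adjusted reads in DMSO and 212, 203 and 199 in pladienolide B (-0.51, limma adjusted p = 0.000476). Its groups did not overlap, and it was at -0.57 without DMSO replicate 2. Without DMSO replicate 2 the list had 18 rises and 3 falls.

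Of 17 translation factors, which act in initiation, elongation, release and recycling or guide the new protein, 8 rose and 4 fell (70.6% called beside 47.6% of all genes, median 0.146), or 8 and 2 without DMSO replicate 2. SLIRP, which with LRPPRC stabilises mitochondrial mRNAs, had 502, 701 and 586 adjusted reads in DMSO and 423, 413 and 387 in pladienolide B, with no overlap (-0.54, SE 0.099, limma adjusted p = 0.00027, and -0.41 without DMSO replicate 2).

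Of 22 genes of mitochondrial aminoacyl-tRNA synthesis 6 rose and 7 fell (59.1% called beside 47.6%, median 0.043), or 8 and 7 without DMSO replicate 2. Most of them encode enzymes that charge tRNAs, while QRSL1, GATB and GATC encode an amidotransferase that acts on charged tRNA. GARS1 and KARS1 encode the cytosolic enzymes as well. CARS2, for cysteine, fell from 1428, 1458 and 1399 adjusted reads to 749.7, 850.2 and 799, or 56.0% of the DMSO mean (-0.84, SE 0.059, limma adjusted p = 6.75e-09). FARS2, for phenylalanine, fell by 0.67 (adjusted p = 1.06e-06), and MARS2, for methionine, rose by 0.64 (adjusted p = 3.99e-05). Leaving DMSO replicate 2 out, these 3 were at -0.82, -0.64 and 0.70. The groups did not overlap in any of them, and CARS2 changed by about as much as MRPL32.

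Of 9 genes of mtDNA transcription and replication 4 rose and 1 fell (55.6% called beside 47.6%, median 0.191). The fall was that of POLG, the catalytic subunit of the mtDNA polymerase, from 1802, 1817 and 1794 adjusted reads to 785, 859 and 843 (-1.12, SE 0.054, limma adjusted p = 8.01e-11), with no overlap. Of 8 transcription regulators of nuclear genes for mitochondria 4 rose and 3 fell (87.5% called beside 47.6%, median 0.16). The coactivator PPARGC1A rose from 16.9, 14.1 and 25.7 adjusted reads to 73.0, 84.2 and 75.2 (2.02, SE 0.248, limma adjusted p = 4.37e-06). The related coactivators PPARGC1B and PPRC1 rose by 0.46 and 0.39 and ESRRA also rose, while NRF1, GABPA and YY1, the factors whose cores were searched in the promoters, fell by 0.44, 0.26 and 0.20. The last 6 were named after their values were seen. GABPB1, the remaining gene of the list and likewise named afterwards, was not called (0.125, limma adjusted p = 0.16). The counts of these 2 lists without DMSO replicate 2 were the same, and POLG and PPARGC1A were at -1.12 and 1.84.

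**Figure D4:**
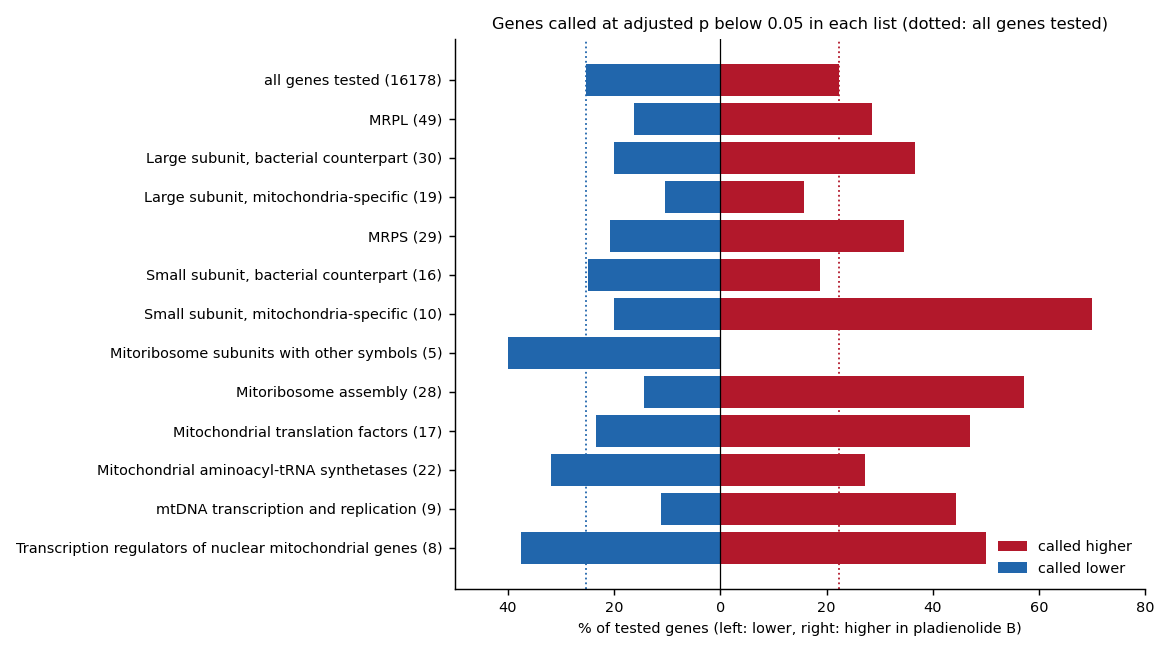
For each list (y axis, number tested in parentheses), bars give the percentage of tested genes (x axis) called higher (right) and lower (left) in pladienolide B with all 6 samples, and dotted lines the shares of all genes tested, 22.4% and 25.2%. The list of mitochondria-specific small-subunit genes holds only MRPS symbols. Its bar (7 rises of 10) and that of the assembly factors (16 of 28) reach farthest to the right. The MRPL bars lie nearer to the dotted lines.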

How the data were processed

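RNA-seq of 3 DMSO and 3 pladienolide B samples was analysed. Per the study's methods, trimmed reads were mapped with hisat2 on hg38, with DESeq2 for the comparison. The submitters' processing notes list HISAT2, HTSeq 0.12.4, DESeq2 and build hg19. Of 35926 symbols also in RefSeq, 99.85% overlap their GRCh38.p14 position, so positions were taken as GRCh38. Strand and gene models of the counting are not given in the sources used here. The deposited values are a signal per gene and sample adjusted for library size by the authors. They match the quantile adjustment of counts in edgeR (common dispersion 0.0027). Inverting it gave whole reads (within 0.02) for 100% of 96432 values of 10 or more, between 22621338 and 26130882 per library. The authors also deposited their own log2 fold changes, p-values and q-values, which were not used.

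Adjusted values were tested with limma 3.58.1 (variance trend, log2(value + 1), two-sided, Benjamini-Hochberg over all genes tested). The pseudocount makes changes of low genes smaller. Genes were kept by filterByExpr of edgeR 4.0.16 (at least 10 in 3 samples and 15 in total), leaving 16178. The planned test for counts was not used, since the values are adjusted. Alternatives were limma-voom, DESeq2 1.42.0 and edgeR's quasi-likelihood test (upper-quartile, RLE or TMM factors) on recovered reads, other filters, a pseudocount of 0.1, no variance trend, a replicate block and leaving out each sample. Removal of a transcript length trend and edgeR without DMSO replicate 2 were added after the values were seen. Scripts were tested on simulated data. Transcripts are the canonical ones of GENCODE v44, and promoters are from RefSeq.

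Named members are the 5 highest and 5 lowest called log2 fold changes with groups that do not overlap per subunit, the 2 most and 2 least abundant per kb, the MRPS18 paralogs, MRPS30 and MRPS36, and in other lists calls of at least 0.5 in size, at most 3 a direction. Members and lists were chosen with earlier results of these data known. Of the listed names, ICT1, MRP63, C12orf65, GARS and KARS were not found, and their current symbols were used. Mitochondrially encoded genes were not analysed here.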

Additional observations from a re-analysis of the deposited data

How the results depend on the processing

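The MRPL counts of 14 higher and 8 lower and the MRPS counts of 10 and 6 stayed within 1.5 times under most alternatives. MRPL genes called lower were 3 with upper-quartile factors, 4 with DESeq2, 3 without the variance trend, 4 with the length trend removed and 3 with edgeR without DMSO replicate 2, and between 3 and 8 with 1 sample left out, lowest without DMSO replicate 2 and at 4 and 5 without pladienolide B replicates 2 and 3. MRPS genes called lower were 3 without the variance trend, and MRPS genes called higher 16 with edgeR without DMSO replicate 2. Leaving out 1 sample gave 11 to 21 MRPL and 8 to 15 MRPS genes higher, 5 or 6 MRPS genes lower, and medians of 0.010 to 0.124 (MRPL) and 0.057 to 0.114 (MRPS). With all samples, the MRPL median ran from 0.065 to 0.112 and the MRPS median from 0.084 to 0.123 over the alternatives. The cause of these differences was not tested. Same-numbered samples did not deviate together (correlations of -0.0183, -0.0175 and 0.0026). With 3 samples a group this cannot show whether the samples were paired, and the main test did not pair them. With a replicate block, 14 MRPL genes were higher and 6 lower, and 9 MRPS genes higher and 6 lower. Of 558 repeats for named members, 517 kept their side of the threshold, 28 lost the call and 13 gained it, and no called member changed direction. With 3 samples a group and a median SE of 0.061 over the members, small changes could not be told from no change. The called change of a member that was smallest in size was -0.14, while estimates of -0.22 and 0.24 were not called.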
